A study of Mus musculus with 18 samples.

Results

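The genes described here are 10 markers and regulators of satellite cells and of the myogenic lineage, among the 20922 genes of the normalized count table: Pax7, Myf5, Myod1, Myog, Myf6, Cdh15, Megf10, Vcam1, Mymk and Tead4. They were taken from a list of names, with no threshold on their values, and all 10 have a row in the table. RNA came from tibialis anterior, the muscle along the shin, in mice with 1 femoral artery tied off as a model of peripheral artery disease, and it was collected 36 days after surgery. There were 4 groups: BKO ligated (4 libraries), BKO intact (5), WT ligated (4) and WT intact (5), where BKO stands for deletion of the clock gene Bmal1 in muscle and WT for controls. All mice carried Bmal1 fx/fx alleles and came from crosses with ACTA-rtTA-TRE-Cre mice, in which a skeletal actin promoter drives a doxycycline-dependent Cre. They received doxycycline by gavage before surgery. In the labels Cre reads -/- in BKO and +/+ in WT mice, which is the reverse of the usual notation, and the genotypes were taken from the group names. The skeletal actin promoter is known to act in muscle fibres. A deletion in satellite cells is neither stated nor denied in the sources used here, which give no age, sex or time of day. The intact limb is the other limb of operated mice, not a limb of mice without surgery.

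Satellite cells are the stem cells of skeletal muscle and lie between the fibre and its basal lamina. Satellite cells are marked by PAX7. Activated ones hold the basic helix-loop-helix factors MYF5 and MYOD1, and then myogenin (Myog) as they leave the cell cycle and fuse. The RNA of such a factor need not mark the same stage as its protein. In mature muscle several of these factors are also made by the nuclei of the fibre itself, MRF4 (Myf6) above all. In a whole muscle, fewer cells of a type and less RNA per cell cannot be told apart.

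The fibre genes Myh4, Ckm and Acta1 averaged between 82462 and 635010 normalized counts in each group, and no group lacked a marker of mature fibres. Depth ran between 14.1 and 25.6 M reads assigned to genes per library. The mitochondrial ribosomal RNA mt-Rnr2 took 40.9% to 55.5% of these reads in BKO ligated and 33.6% to 36.1% in BKO intact libraries. It took 38.1% to 45.3% in WT ligated and 31.9% to 34.3% in WT intact libraries. This share was thus higher in ligated than in intact muscle without overlap, and greatest in BKO ligated libraries 4 and 5 (51.9% and 55.5%). With libraries scaled by TMM without mitochondrially encoded genes, no call of a tested member changed. The gene total of Bmal1 (Arntl) does not check the deletion: it averaged 70.0 ± 8.35 in BKO ligated and 16.2 ± 2.72 in WT ligated muscle, and 49.9 ± 7.00 in BKO intact and 56.3 ± 11.8 in WT intact muscle (normalized counts, SD, n = 4 or 5 per group).

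Per kilobase of exon, the order of the members by mean over the 18 libraries was Myf6 (293 normalized counts per kilobase), Myod1 (106), Tead4 (32.4), Cdh15 (31.5), Myog (22.3), Myf5 (6.39), Pax7 (5.44), Vcam1 (4.499), Megf10 (2.49) and Mymk (1.98). Every library had more Myf6 than any had Myod1 on this scale, and more Myod1 than any had Tead4, while the ranges of neighbours from Tead4 downwards overlapped. Mymk was the only member with a mean below 10 over the 18 libraries, at 2.996 normalized counts and 59 reads in all, and fell below the filter of the test. By group, Myf5 also had a mean below 10 in WT intact muscle, at 9.14. The 9 members other than Mymk were tested among 12262 genes with limma, on log2(normalized count + 1).

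**Figure D1:**
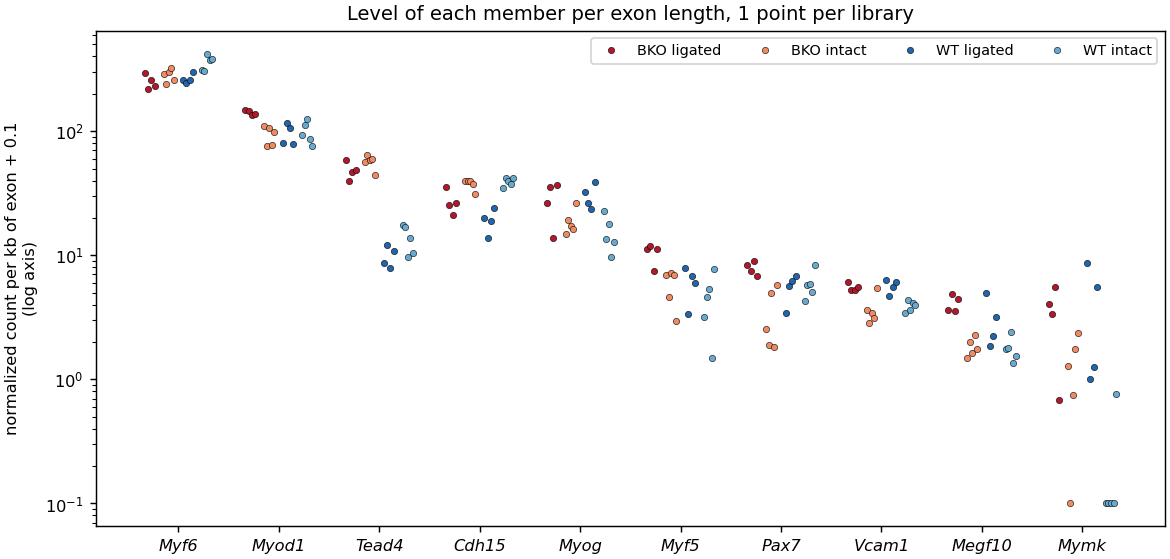
Level of each member in each library, as normalized count per kilobase of exon plus 0.1 on a log axis, in 4 groups side by side. Myf6 lies highest and Mymk lowest, with 4 WT intact libraries and 1 BKO intact library at 0 for Mymk; Tead4 splits by genotype.

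In ligated against intact BKO muscle, 5 of 9 tested members passed the threshold of an adjusted p under 0.05 (4 higher, 1 lower), beside 47.2% of all genes tested (22.1% higher, 25.1% lower). In ligated against intact WT muscle, 5 of 9 passed (3 higher, 2 lower), beside 39.8% of all genes (18.7% higher, 21.1% lower). The median log2 change of the 9 was 0.60 in BKO and -0.05 in WT, where it was -0.00 over all genes in both. Between genotypes, 2 of 9 passed in ligated limbs (both higher in BKO), beside 8.84% of all genes (4.16% higher, 4.68% lower). In intact limbs 3 of 9 passed (1 higher and 2 lower in BKO), beside 18.3% of all genes (8.56% higher, 9.75% lower). The interaction subtracts the log2 change with ligation in WT from that in BKO. Here limma called 0 of 9 members, beside 6.01% of all genes; 3 members had an unadjusted p under 0.05, beside 21.7% of all genes, edgeR called 0 members and DESeq2 called 2.

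**Figure D2:**
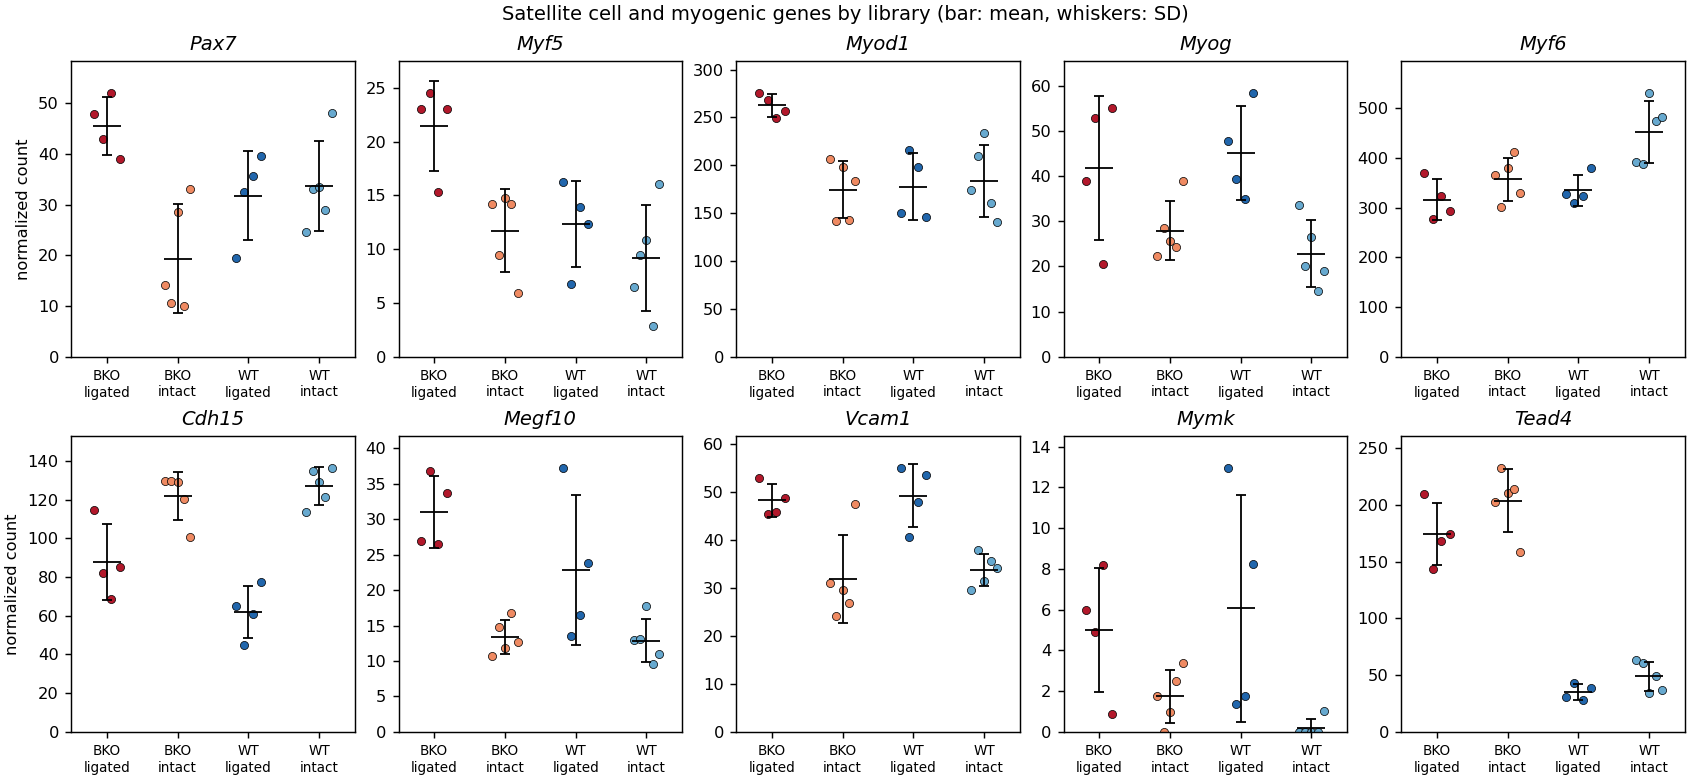
Normalized count of each member in every library, with BKO ligated, BKO intact, WT ligated and WT intact libraries from left to right; bars show the mean and whiskers the SD. Tead4 is above 140 in every BKO library and below 64 in every WT library, and Cdh15 is lowest in WT ligated muscle.

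Tead4 encodes a TEAD transcription factor that binds DNA with YAP or TAZ and acts in myoblast differentiation. It lies on chromosome 6 (mm10, chr6:128224288-128300823, minus strand). It had 209.9, 144, 169 and 175 normalized counts in BKO ligated libraries, against 30.8, 43.4, 27.9 and 38.7 in WT ligated libraries. In intact limbs it had 203, 233, 211, 214 and 159 in BKO libraries, against 63.2, 60.4, 34.5, 49.1 and 37.1 in WT libraries. The lowest BKO value exceeded the highest WT value in both limbs. In intact limbs Tead4 was the 1 member of 9 whose groups did not overlap, beside 14.4% of all genes. The log2 change was 2.28 ± 0.19 in ligated limbs (adjusted p = 6.91e-08) and 2.07 ± 0.17 in intact limbs (adjusted p = 5.35e-08), or about 4.87-fold and 4.19-fold. With ligation the change was -0.23 ± 0.18 in BKO (adjusted p = 0.324) and -0.44 ± 0.18 in WT (adjusted p = 0.0611), which passed without WT ligated library 4 or WT intact library 4 or 6. A processed pseudogene on the opposite strand overlaps Tead4 and has no row in the table.

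Pax7, the transcription factor that marks satellite cells (chr4:139737062-139833528, minus strand), had 48.0, 42.9, 52.1 and 39.0 normalized counts in BKO ligated libraries, against 14.2, 10.5, 28.6, 10.05 and 33.1 in BKO intact libraries. These groups did not overlap, as for 4 of 9 members, beside 35.7% of all genes. The rise with ligation was 1.35 ± 0.31 on the log2 scale in BKO (adjusted p = 0.00129). In WT, ligated libraries had 19.4, 32.5, 35.7 and 39.5, against 24.5, 33.2, 33.5, 28.9 and 48.2 in intact libraries, and the groups overlapped; the change was -0.09 ± 0.31 (adjusted p = 0.845). In intact limbs Pax7 was lower in BKO than in WT by a log2 change of -0.90 ± 0.29 (adjusted p = 0.0363), with the ranges overlapping. That call was lost in 11 of 29 alternatives, edgeR and DESeq2 among them, and without BKO intact library 1, 2 or 4 or WT intact library 3, 4 or 6, with adjusted p up to 0.107. The BKO intact libraries 1, 2 and 4 were the low ones. In ligated limbs the change between genotypes was 0.54 ± 0.33 (adjusted p = 0.347), with the ranges overlapping. The interaction was 1.44 ± 0.44 (adjusted p = 0.0551). It passed with DESeq2 (adjusted p = 0.0398) and without BKO intact library 3 or 5 or WT intact library 2.

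Myf5 and Myod1 encode the factors that commit cells to the myogenic lineage. Myf5 (chr10:107482908-107486134, minus strand) had 23.0, 24.5, 15.3 and 23.1 normalized counts in BKO ligated libraries, against 14.2, 9.48, 14.8, 14.2 and 5.94 in BKO intact libraries. Every ligated value lay above every intact one, the nearest pair being 15.3 and 14.8. The change was 0.87 ± 0.38 (adjusted p = 0.0704), and it passed with edgeR (adjusted p = 0.0372) and DESeq2 (adjusted p = 0.0398). In WT, Myf5 had 16.2, 6.78, 13.9 and 12.4 in ligated libraries, against 6.45, 9.48, 10.8, 2.89 and 16.1 in intact ones, with overlap and a change of 0.50 ± 0.38 (adjusted p = 0.325). It did not pass between genotypes, at 0.79 ± 0.40 in ligated limbs (adjusted p = 0.250) and 0.42 ± 0.36 in intact limbs (adjusted p = 0.476).

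Myod1 (chr7:46376474-46379099, plus strand) had 276, 269, 249 and 257 normalized counts in BKO ligated libraries, against 206, 142, 198, 143 and 184 in BKO intact libraries. WT ligated libraries had 149.9, 216, 198 and 146, against 174, 209.6, 234, 161 and 140.5 in WT intact libraries. The BKO ligated values lay above all others. Ligation raised Myod1 in BKO by 0.60 ± 0.15 on the log2 scale (adjusted p = 0.00309). In WT the change was -0.05 ± 0.15 (adjusted p = 0.835). In ligated limbs Myod1 was higher in BKO than in WT by 0.58 ± 0.16 (adjusted p = 0.0272), without overlap, as for 2 of 9 members, beside 12.9% of all genes. This call was lost without BKO ligated library 2 or 4, or without WT ligated library 2 or 6, with adjusted p up to 0.0959, and without both BKO ligated libraries 4 and 5 (adjusted p = 0.121). In intact limbs the change was -0.07 ± 0.15 (adjusted p = 0.812). The interaction was 0.65 ± 0.22 (adjusted p = 0.0793). It passed with DESeq2 (adjusted p = 0.0461) and without WT ligated library 4 or WT intact library 6.

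**Figure D3:**
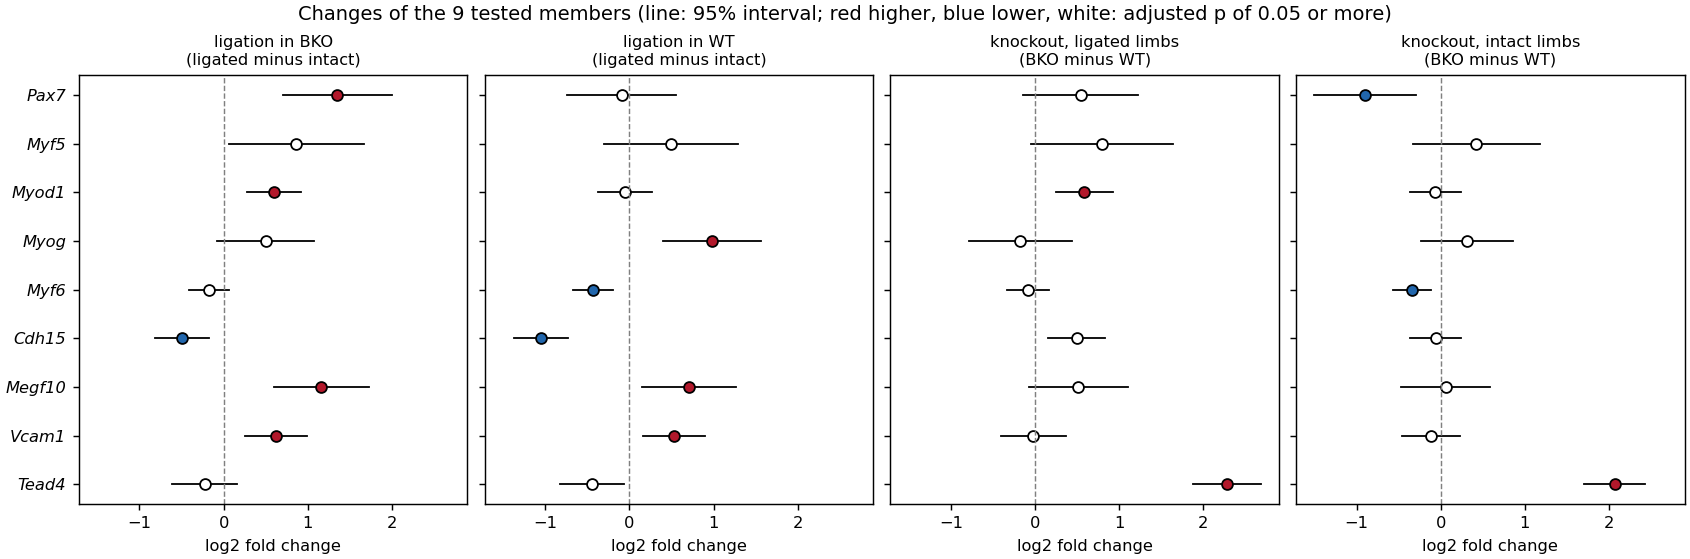
Log2 fold change of the 9 tested members in 4 comparisons, with 95% intervals; red marks higher and blue lower at an adjusted p under 0.05, white marks the rest. Tead4 stands at 2.28 and 2.07 between genotypes; Pax7 stands at 1.35 with ligation in BKO and at -0.09 in WT.

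Myog encodes myogenin, which drives the exit from the cell cycle and differentiation. It lies at chr1:134289989-134292548 on the plus strand (mm10). The RefSeq window of 250 bases before its start (GRCm38.p6, chr1:134289754-134290003, plus strand) is shown since 2 E-boxes, the CANNTG sites bound by basic helix-loop-helix factors such as MYOD1, lie in it, in capitals, at 138 and 12 bases before the RefSeq start. The nearer one lies past the start that GENCODE M21 gives, inside its first exon.
Myog: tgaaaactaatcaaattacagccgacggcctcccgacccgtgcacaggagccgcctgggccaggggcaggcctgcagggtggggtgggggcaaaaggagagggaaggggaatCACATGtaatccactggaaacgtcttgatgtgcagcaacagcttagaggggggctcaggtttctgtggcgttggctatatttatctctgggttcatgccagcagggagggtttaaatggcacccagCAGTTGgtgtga
CANNTG, which reads the same on both strands, is in 66.2% of 32851 promoter windows of that length. RefSeq windows were at hand for 4 of the 10 members (Pax7, Myf5, Myog and Cdh15), and those of Pax7 and Myf5 hold no CANNTG. The MCAT motif of TEAD factors, CATTCC on both strands (12.6% of all windows), is in none of the 4. A strict form of the MEF2 consensus, in 1.69% of all windows, had no exact match in the 4 either. Forms that differ from it by any base were not searched, so this does not say that a window lacks a MEF2 site.

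Myog had 47.8, 39.3, 34.8 and 58.5 normalized counts in WT ligated libraries, against 33.6, 20.1, 26.6, 14.4 and 19.1 in WT intact libraries. All ligated values exceeded all intact ones, as for 4 of 9 members, beside 32.5% of all genes. The change was 0.98 ± 0.28 (adjusted p = 0.00786), about 1.98-fold. In BKO, ligated libraries had 39.0, 52.8, 20.4 and 55.0, against 22.2, 28.4, 25.6, 24.3 and 39.0 in intact libraries, and library 5 of the ligated group lay below all 5 intact ones. The change was 0.50 ± 0.28 (adjusted p = 0.151) and passed without that library, at 0.80 (adjusted p = 0.0171). Between genotypes the change was -0.18 ± 0.29 in ligated limbs (adjusted p = 0.781) and 0.31 ± 0.26 in intact limbs (adjusted p = 0.469).

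Myf6, the factor most abundant in mature fibres (chr10:107492853-107494737, minus strand), had 326, 309, 324 and 379 normalized counts in WT ligated libraries, against 391, 387, 531, 474 and 482 in WT intact libraries. The groups did not overlap, and Myf6 fell by 0.43 on the log2 scale (SE 0.11, adjusted p = 0.00521). BKO ligated libraries had 369.8, 277, 324 and 294, against 365, 300.2, 380.0, 411 and 329 in BKO intact libraries, with overlap and a change of -0.18 ± 0.11 (adjusted p = 0.219). In intact limbs Myf6 was lower in BKO than in WT by -0.34 ± 0.11 (adjusted p = 0.0320). That call was lost in 7 of 30 alternatives, among them without BKO intact library 2 or 5 or WT intact library 4, 5 or 6, with adjusted p up to 0.10003. In ligated limbs the change was -0.09 ± 0.12 (adjusted p = 0.731).

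Cdh15 encodes M-cadherin, an adhesion molecule of satellite cells and myoblasts, and lies at chr8:122847966-122867397 on the plus strand. It lies within the longer gene Gm20388 on the same strand, so reads could be split between them. A 30-base stretch of its RefSeq window (GRCm38.p6, chr8:122848330-122848359, plus strand) is shown for its CACGTG, in capitals, the form of the E-box bound by BMAL1 with CLOCK; it begins 32 bases before the RefSeq start, inside the exon that GENCODE M21 places first.
Cdh15: cgccccaccacaCACGTGcagtcccttggc
CACGTG also counts as CANNTG, and is in 6.02% of the windows. It was searched as letters only.

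Cdh15 had 64.8, 44.8, 60.9 and 77.4 normalized counts in WT ligated libraries, against 114, 135, 129, 121 and 136 in WT intact libraries. No ligated value reached the lowest intact one. Cdh15 fell by 1.05 on the log2 scale (SE 0.15, adjusted p = 1.71e-05), about 2.07-fold, under all alternatives run. In BKO, ligated libraries had 115, 82.2, 68.4 and 85.1, against 129.8, 129.6, 129, 121 and 101 in intact libraries. Only ligated library 2 lay within the intact range, and the fall was 0.49 (SE 0.15, adjusted p = 0.0125); without ligated library 5 it was -0.38 (adjusted p = 0.0602), and without libraries 4 and 5 it was -0.29 (adjusted p = 0.230). Between genotypes in ligated limbs the change was 0.50 ± 0.16 (adjusted p = 0.0625), which passed without BKO ligated library 5 or WT ligated library 6. In intact limbs it was -0.06 ± 0.14 (adjusted p = 0.825). The interaction was 0.56 ± 0.22 (adjusted p = 0.130). The overlapping Gm20388 averaged 86.7 in BKO ligated and 195 in BKO intact muscle, and 100 in WT ligated and 218 in WT intact muscle. Its change with ligation was -2.52 ± 1.11 in BKO (adjusted p = 0.0683) and -1.23 ± 1.11 in WT (adjusted p = 0.404). No alternative changed how reads were assigned between the 2 genes, so the part of this in the Cdh15 result was not tested.

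Megf10, a receptor of the satellite cell surface that acts in proliferation (chr18:57133090-57297467, plus strand), had 27.0, 36.8, 26.6 and 33.7 normalized counts in BKO ligated libraries, against 10.7, 14.7, 11.8, 16.7 and 12.7 in BKO intact libraries. The groups did not overlap and the rise was 1.16 ± 0.27 (adjusted p = 0.00138). WT ligated libraries had 37.3, 13.6, 16.5 and 23.9, against 12.9, 13.03, 17.7, 9.63 and 11.0 in WT intact libraries. Here the groups overlapped and the rise was 0.71 ± 0.27 (adjusted p = 0.0421); the call was lost in 10 of 29 alternatives. They include leaving out WT ligated library 2 or 6 or WT intact library 2, 3, 5 or 6 (adjusted p up to 0.203), no filter on low values (0.0788), a fit of the WT groups alone (0.0932) and leaving out both BKO ligated libraries 4 and 5 (0.0517). Between genotypes the change was 0.51 ± 0.28 in ligated limbs (adjusted p = 0.293) and 0.06 ± 0.25 in intact limbs (adjusted p = 0.912).

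Vcam1, an adhesion molecule of satellite cells that activated endothelium also carries (chr3:116109949-116129688, minus strand), had 53.0, 45.4, 46.0 and 48.8 normalized counts in BKO ligated libraries, against 31.1, 24.2, 29.5, 26.8 and 47.5 in BKO intact libraries. Only intact library 5 reached the ligated range. The rise was 0.62 ± 0.18 (adjusted p = 0.00658). WT ligated libraries had 55.1, 40.7, 47.9 and 53.5, against 29.7, 37.9, 31.5, 35.6 and 34.1 in WT intact libraries, without overlap and with a rise of 0.53 ± 0.18 (adjusted p = 0.0217). That call was lost without WT ligated library 2 (adjusted p = 0.0669) or 6 (adjusted p = 0.0623). Between genotypes the change was -0.02 ± 0.19 in ligated limbs (adjusted p = 0.958) and -0.12 ± 0.17 in intact limbs (adjusted p = 0.698). An antisense gene overlaps Vcam1 and has no row in the table.

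Mymk encodes myomaker, the membrane protein that lets myoblasts fuse (chr2:27061636-27072179, minus strand). It had 5.996, 4.91, 8.17 and 0.887 normalized counts in BKO ligated libraries, against 1.78, 0, 0.985, 2.51 and 3.39 in BKO intact libraries. WT ligated libraries had 12.96, 1.36, 1.74 and 8.23, against 0, 0, 0, 0 and 1.00 in WT intact libraries. The single WT intact read came from library 6, and WT ligated library 4 also held 1 read, so these values differ only by the library's scaling. With no filter on low values Mymk passed for ligation in WT (adjusted p = 0.00516) and not for ligation in BKO (adjusted p = 0.164). No fold is given, since WT intact muscle held 1 read. Mymx, which encodes its partner myomixer, was at 0 in every intact library and averaged 1.34 ± 0.745 in BKO ligated and 3.83 ± 3.75 in WT ligated muscle.

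The genes around the members were taken from lists, whose choice was made with earlier results of these data known. Of 17 further satellite cell markers tested, ligation raised 11 and lowered 0 in BKO, beside 22.1% of all genes higher and 25.1% lower, and raised 10 and lowered 1 in WT, beside 18.7% higher and 21.1% lower. The same shares stand behind the counts with ligation for the other lists. Among them Peg3, an imprinted zinc finger gene, averaged 1358 in BKO ligated and 586 in BKO intact muscle, and 631 in WT ligated and 279 in WT intact muscle. It was also higher in BKO than in WT muscle, by 1.09 ± 0.13 in ligated and 1.06 ± 0.11 in intact limbs. Between genotypes in ligated limbs, 3 of the 17 were higher and 2 lower in BKO, beside 4.16% of all genes higher and 4.68% lower. In intact limbs 3 were higher and 3 lower, beside 8.56% higher and 9.75% lower. Chodl was the one gene of this list that passed in the interaction (0.96 ± 0.22). Met, the hepatocyte growth factor receptor, was lower in BKO, with 104 in BKO ligated and 271 in WT ligated muscle (log2 change -1.39 ± 0.15). The syndecan Sdc4 was higher in BKO, with 291 in BKO ligated and 129 in WT ligated muscle (1.16 ± 0.12). The sum of the 20 listed markers ran between 21133 and 22071 in BKO ligated and 19787 and 21570 in BKO intact libraries. It ran between 17455 and 21000 in WT ligated and 19938 and 22137 in WT intact libraries. The 10 members summed to between 747 (WT ligated) and 1166 (BKO ligated). Which cells of the muscle made the RNA of the listed markers was not tested. Of 13 Notch pathway genes, which hold satellite cells in quiescence, 10 were higher and 0 lower with ligation in BKO, and 8 higher and 1 lower in WT. Notch3, a receptor that pericytes also carry, averaged 505 in BKO ligated and 179 in BKO intact muscle, with a rise of 1.52 ± 0.15.

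Of 8 E proteins and inhibitors of basic helix-loop-helix factors, 6 were higher with ligation in BKO and 4 in WT, and none was lower. Mdfi, which encodes an inhibitor of MYOD family factors, averaged 24.5 in BKO ligated and 3.18 in BKO intact muscle, and 26.4 in WT ligated and 2.20 in WT intact muscle. Of 15 cofactors of myogenic transcription, 10 were lower and 1 higher with ligation in BKO, and 13 lower and 0 higher in WT. Dach2 averaged 0.255 ± 0.511 in BKO ligated and 91.1 ± 6.94 in BKO intact muscle, and 2.05 ± 1.93 in WT ligated and 64.8 ± 37.1 in WT intact muscle. In that list Mef2d, a MEF2 factor, and Mrtfa, a coactivator of SRF, were lower in BKO intact than in WT intact muscle, by -0.62 ± 0.09 and -1.04 ± 0.17. Of the 15 cofactors, 4 were lower and 1 higher in BKO in intact limbs, beside 9.75% of all genes lower and 8.56% higher. In ligated limbs 0 were lower and 0 higher, beside 4.68% and 4.16%.

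Of 21 TEAD and Hippo pathway genes, 8 were lower and 0 higher in BKO than in WT intact muscle, beside 9.75% of all genes lower and 8.56% higher. In ligated muscle 1 was lower and 1 higher, beside 4.68% lower and 4.16% higher. Vgll2, which encodes a TEAD cofactor of skeletal muscle, averaged 113 in BKO intact and 334 in WT intact muscle (log2 change -1.57 ± 0.20), and 88.5 in BKO ligated and 197 in WT ligated muscle (-1.23 ± 0.22). Yap1, the coactivator YAP, was higher in BKO ligated than in WT ligated muscle, at 635 and 422 (0.58 ± 0.13). Of 15 fusion genes, 8 were higher and 1 lower with ligation in BKO, and 8 higher and 2 lower in WT. Itga4, an integrin that binds VCAM1, was lower with ligation, at 85.7 in BKO ligated and 232 in BKO intact muscle (-1.44 ± 0.19), and 141 in WT ligated and 352 in WT intact muscle (-1.36 ± 0.19).

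Of 9 genes of regenerating fibres, 5 were higher and 1 lower with ligation in BKO, and 6 higher and 0 lower in WT. In intact limbs 2 were higher and 1 lower in BKO than in WT, beside 8.56% of all genes higher and 9.75% lower. In ligated limbs 0 passed, beside 8.84% of all genes. The sum of the 11 listed genes ran between 2395 and 4489 in BKO ligated and 3053 and 5660 in BKO intact libraries. It ran between 2378 and 3644 in WT ligated and 893 and 1222 in WT intact libraries. Myh8, the perinatal myosin, averaged 307 in BKO ligated and 61.8 in BKO intact muscle, and 249 in WT ligated and 41.6 in WT intact muscle. The myosin gene Myh3 averaged 77.1 in BKO ligated and 26.4 in BKO intact muscle, and 60.5 in WT ligated and 24.7 in WT intact muscle. Both were a small part of the sum, which rested mainly on other listed genes and does not stand for each of them. Of 11 denervation and synapse genes, 4 were higher and 3 lower in BKO than in WT intact muscle, beside 8.56% of all genes higher and 9.75% lower. In ligated muscle 2 were higher and 1 lower, beside 4.16% higher and 4.68% lower. Chrnb1, an acetylcholine receptor subunit, averaged 398 in BKO ligated and 156 in WT ligated muscle, and 417 in BKO intact and 191 in WT intact muscle.

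**Figure D4:**
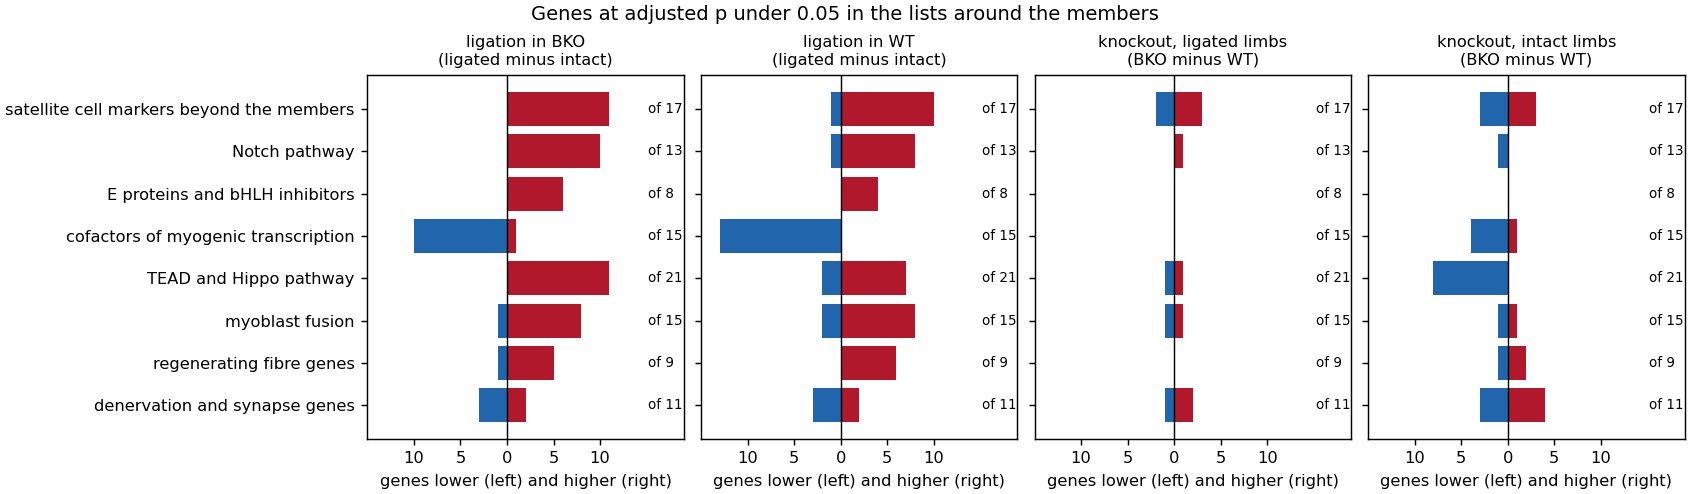
Number of genes at an adjusted p under 0.05 in each list around the members, lower to the left and higher to the right, with the number tested at the right edge. Cofactors of myogenic transcription are mostly lower with ligation, with 10 of 15 in BKO and 13 of 15 in WT, and 8 of 21 TEAD and Hippo pathway genes are lower in BKO intact muscle.

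By Pearson correlation over the 18 libraries among genes with a mean of at least 50, the genes most like Tead4 were Casq2 (r = 0.957), Chrnb1 (r = 0.954) and Agt (r = 0.952). Those most like Cdh15 were Exoc7 (r = 0.947), Hmga1 (r = 0.942) and Pfkfb4 (r = 0.940). Those most like Pax7 were Zswim8 (r = 0.857), 2900026A02Rik (r = 0.853) and Prrc2a (r = 0.850). The libraries share their depth and group structure, so these are descriptions. Prrc2a had 611, 324, 744, 371 and 651 normalized counts in BKO intact libraries 1 to 5, against 967 ± 73.4 in WT intact muscle (SD, n = 5), and libraries 2 and 4 were the lowest for both Prrc2a and Pax7; the part of this in the Pax7 result was not tested.

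**Figure D5:**
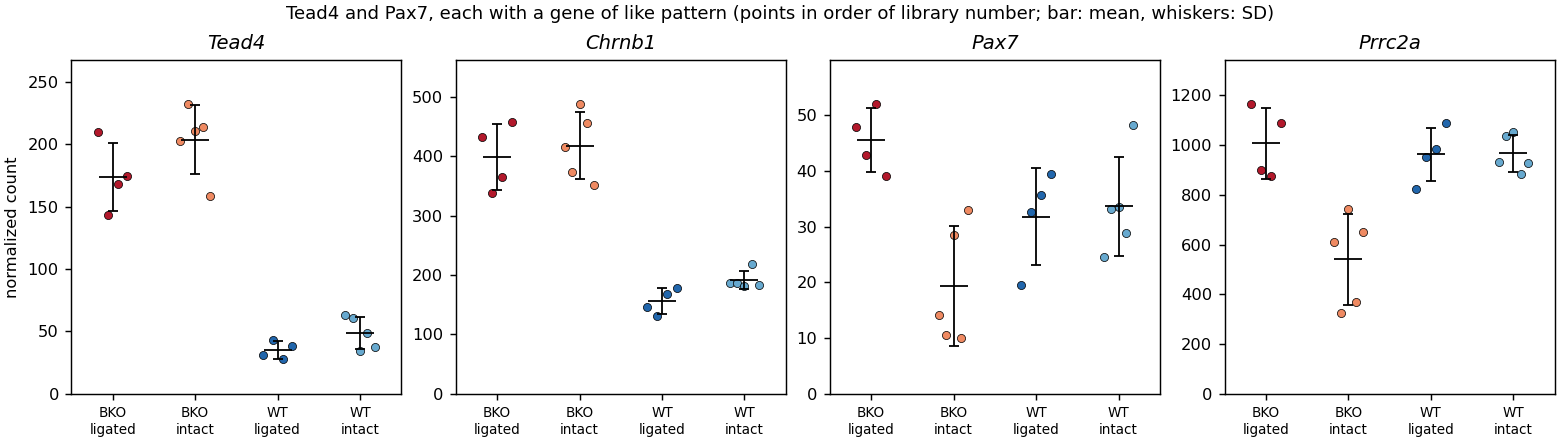
Normalized counts per library of Tead4 with Chrnb1 and of Pax7 with Prrc2a, in the 4 groups, with mean and SD. Tead4 and Chrnb1 are high in both BKO groups, and BKO intact libraries 2 and 4 are low for Pax7 and Prrc2a.

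Markers of other cell types also moved with ligation. All 6 adipocyte markers were higher in ligated than in intact muscle in both genotypes, with a median log2 change of 4.80 in BKO and 5.41 in WT. Their sum ran between 804 and 3197 normalized counts in BKO ligated, 22.2 and 100.4 in BKO intact, 2373 and 4703 in WT ligated, and 44.3 and 160.03 in WT intact libraries. Of 10 markers of fibro-adipogenic progenitors, stromal cells that can form fat, 3 were higher and 0 lower with ligation in BKO and 6 higher and 0 lower in WT. Their sum ran between 6270.04 and 8909.8 in BKO ligated, 4000.2 and 5702 in BKO intact, 9114 and 9613 in WT ligated, and 5437 and 6610.5 in WT intact libraries. Of 9 smooth muscle and pericyte markers, 5 were higher and 1 lower with ligation in each genotype. In BKO against WT intact muscle 4 were lower and 0 higher, beside 9.75% of all genes lower and 8.56% higher. Their sum ran between 23693 and 25816 in BKO ligated, 21691 and 24006 in BKO intact, 22057 and 24956 in WT ligated, and 23269 and 26520.4 in WT intact libraries. In WT its median was 23090 in ligated and 24229 in intact libraries, although more of these markers rose than fell. A sum follows its most abundant genes and is not a number of cells. Of 10 endothelial markers, 9 were higher in BKO and 8 in WT ligated muscle than in intact muscle, and their sum ran between 4416 and 5876 in BKO ligated, 2623 and 3268 in BKO intact, 3940 and 5142 in WT ligated, and 2452 and 3053 in WT intact libraries. Of 10 macrophage markers, 1 was higher and 1 lower with ligation in BKO and 6 higher and 1 lower in WT; their sum ran between 562 and 913 in BKO ligated, 417 and 805 in BKO intact, 1028 and 1291 in WT ligated, and 574 and 787 in WT intact libraries. In ligated limbs 3 macrophage, 3 fibro-adipogenic progenitor and 1 adipocyte marker were lower in BKO than in WT, beside 4.68% of all genes. In intact limbs 1 adipocyte and 1 fibro-adipogenic progenitor marker were lower in BKO. The interaction called 2 macrophage and 2 fibro-adipogenic progenitor markers, with negative values, beside 6.01% of all genes. No marker of these lists was at 0 in all libraries of a group. Of 10 markers of mature fibres, 2 were higher and 5 lower with ligation in BKO, and 1 higher and 5 lower in WT. Their part in the member results was not tested.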

How the data were processed

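The kit was TruSeq stranded total RNA, per the labels. The submitters' processing notes name DESeq2, RSEM 1.3.3, STAR 2.5.2, Trimmomatic 0.33 and the build mm10. The strand setting and the annotation were not given there, and overlapping genes may share reads. What the authors deposited is a signal per gene and library, normalized counts without length correction. Divided by 1 factor per library, 100% of the values were whole within 0.001, which gave the reads and the depth. These reads are whole counts assigned to genes after RSEM, and depth is their sum, not the number of reads sequenced. The labels do not say that samples came from separate animals, and p-values then reflect only the spread among the samples, which may be technical.

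Genes with a mean of at least 10 over 18 libraries were tested with limma 3.58.1 (R 4.3.3) on log2(normalized count + 1), which understates changes of low genes. One fit held 4 group means with an intensity trend, and Benjamini-Hochberg adjustment ran over 12262 genes. Errors beside log2 changes are standard errors. Tested on simulated data with 200 genes changed 2-fold, it recovered 84% for ligation in WT and 46% for the interaction. The simulation gave all genes 1 dispersion, 0.03. The SD of tested members within a group ran from 4.51% of the mean (Myod1, BKO ligated) to 55.8% (Pax7, BKO intact). These rates need not hold for the more variable members. edgeR 4.0.16 and DESeq2 1.42.0 on the recovered reads, other filters and pseudocounts, left-out libraries and replicate blocks were alternatives.

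All 10 members are named, and up to 4 genes per list by smallest p. The members and lists were chosen with earlier results of these data known, and the promoter motifs after the values were seen. Gene coordinates are from GENCODE M21 (mm10), and sequences from RefSeq. Among the 32 pairs of libraries of 1 group none agreed within sampling noise.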

Additional observations from a re-analysis of the deposited data

Results flagged for a closer look

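Of 40 groups of values, 1 in 20 of which chance would single out, 2 had a sample far from the others. Myf5 had 15.3 normalized counts in BKO ligated library 5, where the other BKO ligated libraries had 23.0 to 24.5. The gap to the nearest of them was 0.831 of the range, barely over the limit of 0.829. Mymk had 1.00 in WT intact library 6, which is 1 read, where the other WT intact libraries had 0. With all others at 0 any read would be flagged, so the stated chance rate does not apply to Mymk here.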

How the results depend on the processing

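The changes of Tead4 with genotype, of Myog, Cdh15 and Myf6 with ligation in WT, and of Pax7, Megf10, Myod1 and Vcam1 with ligation in BKO kept direction and call under all alternatives that tested them. With a mean of at least 50, which tests 4 members, the number of members called was 2 for ligation in WT and 2 for ligation in BKO. The interaction called 2 members with DESeq2 (Myod1 and Pax7). Over all genes it called 450 without the trend, 1158 with DESeq2 and 269 without BKO ligated libraries 4 and 5, those with most mt-Rnr2, against 737. Without those libraries 616 genes were called between genotypes in ligated limbs, against 1084, and the log2 change there was 0.0643 for Myog and 0.0530 for Vcam1. The labels do not say whether same-numbered ligated and intact libraries came from 1 mouse. Over 7 such pairs, the deviations of genes from their group means correlated between -0.064 and 0.048. That gave no sign of pairing, but it cannot show that the mice were different. A replicate block with the number as a fixed factor gave 1 member called for knockout in intact limbs (Tead4), 1 for the interaction (Myod1, 0.78, adjusted p = 0.0251), no call of Megf10 for ligation in WT (adjusted p = 0.0781), and 0.0201 for Myod1 with ligation in WT, and a block by duplicateCorrelation gave 1 member for the interaction (Pax7, adjusted p = 0.0472). Leaving out 1 library at a time, members called ranged between 3 and 6 (ligation in WT), 1 and 3 (knockout in intact limbs), 1 and 3 (knockout in ligated limbs) and 0 and 1 (interaction), and all genes called in the interaction between 402 and 1015. Log2 changes that turned sign then ranged between -0.15 and 0.0447 (Myod1) and -0.21 and 0.12 (Pax7) for ligation in WT, -0.16 and 0.0255 (Myod1), -0.0306 and 0.17 (Megf10) and -0.10 and 0.00404 (Cdh15) for knockout in intact limbs, and -0.34 and 0.13 (Myog) and -0.11 and 0.0331 (Vcam1) for knockout in ligated limbs. The cause was not tested. Low read numbers limit Mymk, Myf5 and Megf10 most.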
